A study of Mus musculus with 18 samples.

Results

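The Hedgehog pathway genes described here are the ligand gene Shh, the receptor gene Ptch1, the ligand-binding antagonist gene Hhip, the transducer gene Smo and the transcription factor genes Gli1, Gli2 and Gli3. They were taken by symbol from the deposited table, which held all 7 members among 55357 genes. All 7 entered the tests, which used 17667 genes. The libraries are bulk RNA-seq of back skin from FVB mice aged 6 months, with 6 mice in each of 3 genotypes and 1 library per mouse. WT mice carry no transgene. N-IKKa mice carry exogenous IKKα, a kinase known from NF-kB signalling, in keratinocyte nuclei. C-IKKa mice carry it in keratinocyte cytoplasm. The sources used here do not give the promoter that drives each transgene or the number of founder lines. Mice in all 3 groups share strain, age and tissue.

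In the skin, Sonic hedgehog is secreted by epithelial cells of the growing hair follicle. It binds Ptch1, which otherwise holds Smo inactive. Active Smo signals through the primary cilium to the Gli proteins: Gli2 acts mainly as an activator, Gli3 is mostly processed to a repressor, and Gli1 is an activator whose own gene is a target. Ptch1 and Hhip are targets too and limit the signal. Both the follicle epithelium and the dermal papilla below it receive the signal, which drives proliferation when a hair cycle starts.

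Libraries held 11.1 to 15.7 M counted reads, recovered from the normalized counts. A list of 24 measured hair shaft and inner root sheath genes had a mean log2 value of 9.63 to 11.65 in 6 libraries and 2.35 to 5.45 in the other 12. These 6 came from N-IKKa mice 8, 9 and 11, WT mice 1 and 4, and C-IKKa mouse 14. They are called high hair shaft libraries below. They were told apart by measured hair genes and not by a label, so values in them and in the other 12 are described without a test. Epidermal keratinocyte markers were present in every library, with list means of 12.15 to 13.21 on the log2 scale. Chuk, the gene of endogenous IKKα, ran from 851 to 1267 normalized counts in WT, from 804 to 1050.2 in N-IKKa and from 853 to 934 in C-IKKa. These ranges overlapped, and whether reads of the transgene are counted under Chuk was not given in the sources used here. Of 153 pairs of libraries, the most similar had a chi-square per gene of 5.61, far above the 1 of sampling noise, so no library was a copy of another. All 6 high hair shaft libraries were read as female from Ddx3y, as were 2 WT, 1 N-IKKa and 1 C-IKKa library of the other 12, C-IKKa 18 being that C-IKKa library.

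Shh, the ligand, was near the limit of detection in most skin and abundant in a few libraries. It measured 196.6 normalized counts in WT 1, 164 in WT 4, 277 in N-IKKa 8, 496 in N-IKKa 9, 318 in N-IKKa 11 and 158 in C-IKKa 14. C-IKKa 18 held 74.1 normalized counts from 78 reads. In the other 11 libraries Shh ran from 0 to 9.85, and 9 of these 11 held 3 reads or fewer. A listed 0 allows up to 3 reads, or 2.45 to 3.61 normalized counts depending on the library, and it covers counting error only. Thus the 6 high hair shaft libraries and C-IKKa 18 carried Shh, and none of the other 11 exceeded 11 reads. Shh passed the filter on low values through these 7 libraries. In bulk skin, fewer cells of a type and less RNA per cell cannot be told apart. Exons of genes on the opposite strand cover 28.3% of the exon length of Shh, and the strand setting of the counting was not given in the sources used here.

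Ptch1, the Shh receptor and a target gene, was high in the same 7 libraries. Its normalized counts ran from 1911 to 3805 (median 2670.5) in the 6 high hair shaft libraries and from 658 to 941 (median 810.1) in the 11 libraries with little or no Shh. C-IKKa 18 held 2086, inside the range of the 6. The 11 libraries were close to one another in Ptch1, whatever their genotype.

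Hhip, a membrane-bound antagonist that sequesters Hedgehog ligands, varied most among the high libraries. It ran from 218 to 1132 (median 359.9) in the 6 and from 52.3 to 132 (median 83.6) in the 11, and C-IKKa 18 held 196. N-IKKa 9 alone reached 1132, and N-IKKa 8 followed with 584. N-IKKa 9 was also the highest library in Shh, Ptch1, Gli1, Gli2, Gli3 and Smo.

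Promoters of Ptch1 and Hhip, the pair of feedback targets, are shown because both genes were high where Shh was. Sequences are from RefSeq on GRCm38.p6, an earlier build than the GRCm39 of the counts, and run 5′ to 3′ on the gene's strand, from 250 bases before to 50 after the start. Capitals mark CpG dinucleotides. Ptch1 is at chr13:63565686-63565985 on the minus strand and Hhip at chr8:80057959-80058258 on the minus strand.
Ptch1: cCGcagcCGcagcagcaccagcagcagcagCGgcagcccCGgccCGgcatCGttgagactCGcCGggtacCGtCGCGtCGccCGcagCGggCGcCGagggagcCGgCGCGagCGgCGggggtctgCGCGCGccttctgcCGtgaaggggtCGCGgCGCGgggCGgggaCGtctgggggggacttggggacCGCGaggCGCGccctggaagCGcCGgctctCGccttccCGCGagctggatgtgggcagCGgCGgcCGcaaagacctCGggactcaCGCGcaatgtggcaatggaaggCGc
Hhip: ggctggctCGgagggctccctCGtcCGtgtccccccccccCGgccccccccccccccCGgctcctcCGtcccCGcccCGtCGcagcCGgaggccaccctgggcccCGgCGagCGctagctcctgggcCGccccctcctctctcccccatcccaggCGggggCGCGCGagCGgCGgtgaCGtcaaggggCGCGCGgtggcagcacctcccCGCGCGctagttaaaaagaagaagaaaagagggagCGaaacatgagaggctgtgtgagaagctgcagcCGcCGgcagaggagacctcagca
The Gli consensus GACCACCCA, read on both strands, was not found in either window, nor with 1 mismatch allowed. It was also not found in the windows of Gli2, Gli3 and Smo, the other 3 members with a RefSeq entry. Of 32851 promoters of this length, 0.253% held the exact letters and 6.74% held them with up to 1 mismatch. Ptch1 held 47 CpG and 76.3% G or C, and Hhip held 30 CpG and 73.7%, against medians of 7 CpG and 52.7% over all promoters.

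Smo, the transducer, was the steadiest member. It measured 782 to 1036 (median 955.2) in the 6 high hair shaft libraries, 677 to 874 (median 790.04) in the 11, and 749 in C-IKKa 18. These ranges overlapped.

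Gli1 is the member usually read as the output of the pathway. Its normalized counts ran from 458 to 774 (median 608.03) in the 6 high hair shaft libraries and from 59.6 to 219 (median 124) in the 11. C-IKKa 18 held 661, which was higher than in WT 1 (527), WT 4 (458) and C-IKKa 14 (552). This library was therefore low in hair shaft genes and as high in Gli1 as libraries with abundant hair shaft RNA.

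Gli2 and Gli3 separated in that library. Gli2 ran from 743 to 1030.5 in the 6 and from 249 to 463 in the 11, with 729 in C-IKKa 18. Gli3 ran from 1013 to 2686 in the 6 and from 372 to 880.01 in the 11, with 636 in C-IKKa 18. In C-IKKa 18 the activators Gli1 and Gli2 lay above all 11 libraries with little or no Shh, whereas Gli3 lay among them.

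**Figure D1:**
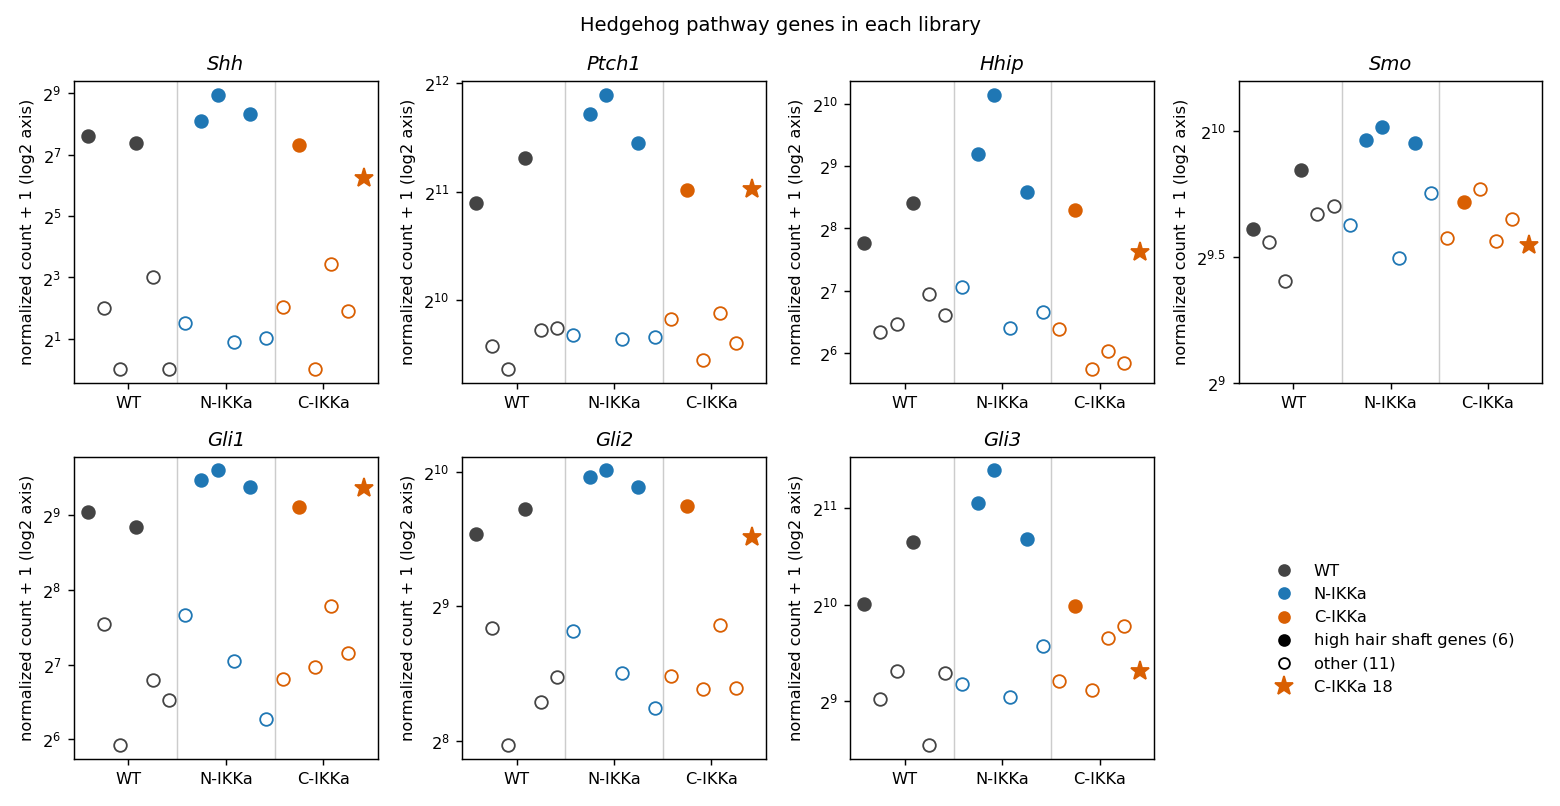
Normalized count + 1 (log2 axis) of each of the 7 members in each of the 18 libraries, by genotype. Filled circles are the 6 high hair shaft libraries, open circles the other 11, and the star is C-IKKa 18, which lies with the filled circles in Gli1 and Ptch1 and with the open circles in Gli3 and Smo.

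Counted over members, 4 of 7 (Shh, Gli2, Gli3 and Hhip) lay higher in every high hair shaft library than in any of the other 12, where 8.45% of tested genes did. Setting C-IKKa 18 aside, 6 of 7 did, with Gli1 and Ptch1 added, against 9.09% of tested genes higher and 5.72% lower. Shh reached the filter's 10 normalized counts in 7 libraries, the 6 and C-IKKa 18, so without C-IKKa 18 its separation was fixed by the filter. Leaving Shh out, 5 of 6 members lay higher in the 6 than in the 11 and 3 of 6 than in the 12. Among the 17131 genes that reached 10 in more than 7 libraries, 8.56% and 7.93% did. Smo overlapped in both. C-IKKa 18 itself exceeded all 11 libraries with little or no Shh in 5 of 7 members, and in 9.45% of tested genes; it lay below all 11 in 0 members and in 8.39% of tested genes. Here too Shh was fixed by the filter, and without it the count was 4 of 6, against 9.24% of the 17131 genes. C-IKKa 18 was singled out after its values were seen.

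Per kilobase of exon, the order of the members differed between libraries with abundant and with little Shh. In the 6 high hair shaft libraries the medians of normalized counts per kb were 188 for Ptch1, 170 for Smo, 169 for Gli3, 131 for Gli2, 122 for Gli1, 83.1 for Shh and 39.7 for Hhip. The ranges of each neighbouring pair in that order overlapped. In the 11 libraries with little or no Shh they were 141 for Smo, 61.4 for Gli3, 57.1 for Ptch1, 51.7 for Gli2, 24.8 for Gli1, 9.21 for Hhip and 0.648 for Shh. There Smo (120.4 to 155) lay above every other member, and Gli3, Ptch1 and Gli2 overlapped one another. In C-IKKa 18 the levels per kb were 147 for Ptch1, 133 for Smo, 132 for Gli1, 106 for Gli2, 66.3 for Gli3, 26.04 for Shh and 21.6 for Hhip. Lengths are from an annotation of the earlier build and count all exons of a gene.

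What else set C-IKKa 18 apart was read from gene lists, as the mean log2 value of each list. The list of hair shaft and sheath genes stood at 5.45 there, between the 11 (2.35 to 4.45) and the 6 (9.63 to 11.65). The inner root sheath keratin genes Krt71 and Krt25 held 2152 and 1108 normalized counts, against at most 481 and 245 in the 11 and at least 27604 and 13196 in the 6. Of 7 inner root sheath keratin genes on the list, 6 lay above all 11 in C-IKKa 18, and Krt72 (39.9, against at most 57.7) did not. Of 11 hair shaft keratin genes, 4 lay above all 11, among them Krt35 (158, against at most 24.2) and Krt31 (25.7, against at most 12.5), and 7 lay within their range, among them Krt81 (9.50, against at most 15.6). Over the whole list, 13 of 24 genes lay above the 11 and 11 lay within their range. These genes were named after their values were seen.

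Other lists placed C-IKKa 18 between the sets, with one of them or in both. The hair matrix list stood at 8.77, between 7.84 to 8.28 in the 11 and 10.12 to 11.08 in the 6. The cell cycle list stood at 7.59, between 6.46 to 7.28 and 8.14 to 9.27. The melanocyte list stood at 8.36, between 6.01 to 7.48 and 9.43 to 10.86. The dermal papilla list, which includes Hhip, stood at 6.49, at the lower edge of the 6 (6.47 to 7.64) and above the 11 (5.43 to 5.88); its markers Sox2 and Fgf7 were listed at 0 in every library. Summed over the list, dermal papilla markers ran from 2536 to 3747 normalized counts in the 11 and from 4714 to 12078 in the 6. Corin, Hhip, Trps1, Alx4 and Lef1, which is also on the hair matrix list, lay higher in all 6 than in the 11. Alpl, Rspo3, Wif1, Crabp1, Fgf10 and Bmp4 overlapped, and the median of Rspo3 was lower in the 6 (142) than in the 11 (214). Lists of cells outside the follicle differed as well. The T cell list stood at 3.44 to 4.82 in the 6, at 4.90 to 5.93 in the 11 and at 5.64 in C-IKKa 18, so it lay lower in all 6. The fibroblast list ran from 11.12 to 12.28 (median 11.64) in the 6 and from 11.97 to 13.51 (median 13.13) in the 11. These ranges overlapped, and C-IKKa 18, at 12.16, lay within both. The Schwann cell list stood at 8.81 in C-IKKa 18, below the 11 (8.89 to 9.45) and within the 6 (8.07 to 8.98). The endothelial list stood at 8.48, just below the 11 (8.49 to 9.19), and the sebaceous list at 11.11, just above them (10.38 to 11.05); both lay within the 6. In the keratinocyte, follicle stem cell, adipocyte, skeletal muscle and macrophage lists C-IKKa 18 lay within both sets. The part of cell composition in the members' values was not tested.

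**Figure D2:**
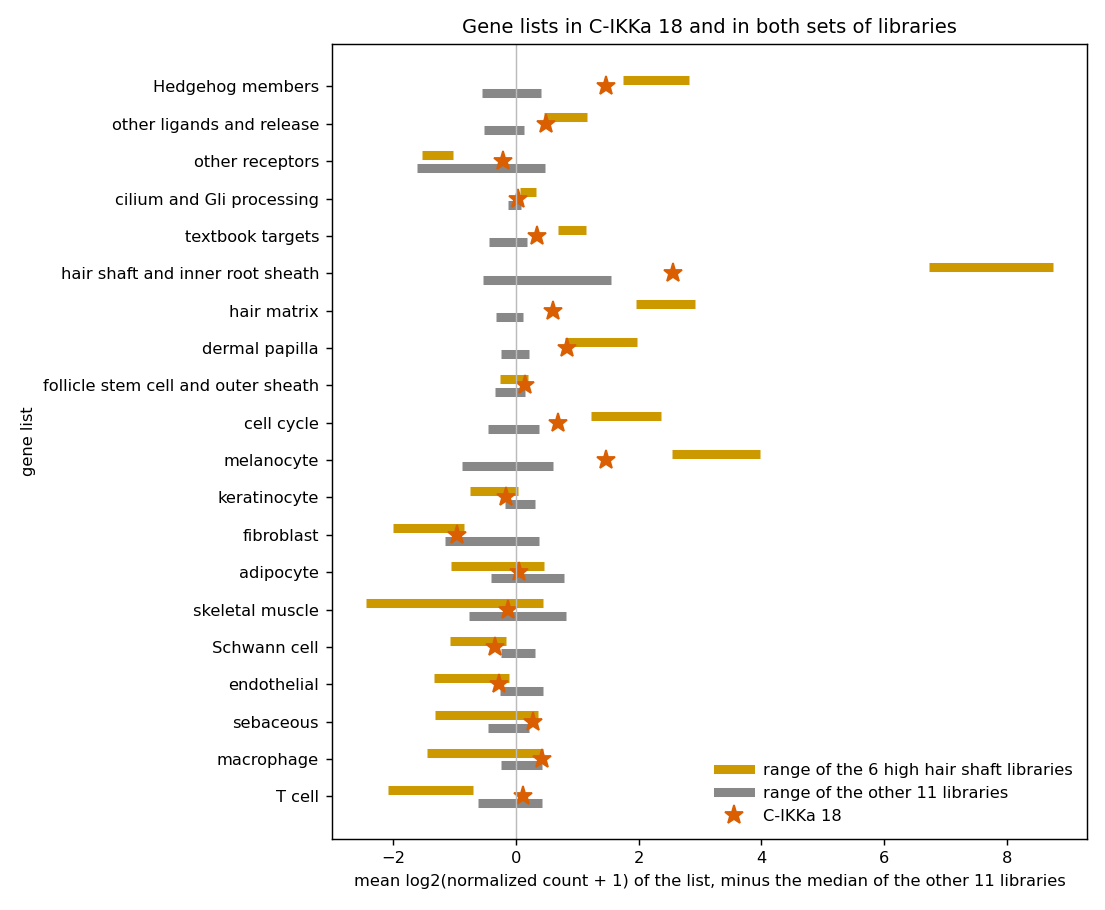
Mean log2(normalized count + 1) of each gene list, minus the median of the 11 libraries with little or no Shh. Bars span the lowest to the highest library of the 6 high hair shaft libraries (gold) and of the 11 (grey). The star is C-IKKa 18, which lies between both bars for the Hedgehog member, target, hair shaft, hair matrix, cell cycle and melanocyte lists.

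Genotype was examined next: does IKKα in the nucleus or the cytoplasm of keratinocytes change these genes? None of the 7 members was called in any of the 3 comparisons by limma at an adjusted p below 0.05, and edgeR and DESeq2 also called 0. Of tested genes, limma called 0.345% for C-IKKa vs WT, 0.00566% for N-IKKa vs WT and 0.43% for N-IKKa vs C-IKKa. In the same order edgeR called 0.311%, 0.00566% and 0.34%, and DESeq2 0.838%, 0.0113% and 1.06%. At an unadjusted p below 0.05 limma gave 0 members for C-IKKa vs WT, 0 for N-IKKa vs WT and 1, Hhip, for N-IKKa vs C-IKKa, where 5.73%, 4.14% and 11.7% of all tested genes had such a p. DESeq2 gave 0, 2 (Gli3 and Hhip) and 2 (Gli3 and Hhip), and edgeR 0, 1 (Hhip) and 2 (Gli3 and Hhip). All-gene shares were 7.18%, 6.06% and 15.1% with DESeq2 and 6.10%, 5.09% and 12.6% with edgeR. The comparisons share groups and are not independent of one another. No member was free of overlap between any 2 groups. In C-IKKa vs WT, ranges did not overlap for 0.838% of tested genes in the higher direction and 0.147% in the lower, for N-IKKa vs WT 0.0849% and 0.0396%, and for N-IKKa vs C-IKKa 0.311% and 0.736%.

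For Shh, WT averaged 61.8 ± 92.5 normalized counts, N-IKKa 182 ± 212 and C-IKKa 41.4 ± 63.9 (SD, n = 6 each), and the lowest, median and highest libraries were 0, 5.02 and 196.6 in WT, 0.880, 139 and 496 in N-IKKa, and 0, 6.47 and 158 in C-IKKa. The SD exceeded the mean in each group. C-IKKa vs WT gave a log2 fold change of 0.15 (SE 1.83, 95% limits −3.70 to 4.01, limma adjusted p = 0.998) and N-IKKa vs WT gave 1.47 (SE 1.83, 95% limits −2.38 to 5.32, limma adjusted p = 0.888). With such limits neither a change nor its absence can be read for Shh.

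For Gli1, WT averaged 239 ± 202, N-IKKa 425 ± 321 and C-IKKa 301 ± 242 (SD, n = 6 each). The medians were 148, 432 and 180.4, and each group held libraries under 120 and over 500. C-IKKa gave a log2 fold change of 0.42 (SE 0.68, 95% limits −1.01 to 1.85, limma adjusted p = 0.985) and N-IKKa one of 0.79 (SE 0.68, 95% limits −0.64 to 2.22, limma adjusted p = 0.88), each vs WT. Gli2 gave 0.09 (SE 0.38) and 0.43 (SE 0.38) in the same comparisons, and Gli3 gave 0.04 (SE 0.40) and 0.68 (SE 0.40). All 3 Gli genes overlapped between groups.

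Gli1 in C-IKKa vs WT moved with the covariates. With sex read from Ddx3y as a covariate its log2 fold change was 1.07 (95% limits 0.11 to 2.02, limma adjusted p = 0.848), and with the hair shaft list as a covariate it was 0.68 (95% limits 0.01 to 1.35, limma adjusted p = 0.508). Both limits exclude 0, and neither passed the adjusted threshold. All libraries read as male lay outside the high hair shaft libraries, so the sex covariate also carries hair state. The C-IKKa libraries read as female were C-IKKa 14 and C-IKKa 18, with Gli1 at 552 and 661. Neither covariate fit was repeated without C-IKKa 18, which was low in hair shaft genes and high in Gli1. Shh in the same comparison was 1.85 (95% limits −0.82 to 4.52) with sex and 0.88 (95% limits −0.71 to 2.47) with the hair shaft list. Limma called 0 of 7 members in each comparison with either covariate. With sex it called 0.368%, 0.00566% and 0.357% of tested genes, and with the hair shaft list 0.979%, 0.00566% and 0.889%, in C-IKKa vs WT, N-IKKa vs WT and N-IKKa vs C-IKKa.

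For Ptch1, WT averaged 1264 ± 776, N-IKKa 2065 ± 1411 and C-IKKa 1247 ± 650.3 (SD, n = 6 each). C-IKKa gave a log2 fold change of 0.03 (SE 0.47, 95% limits −0.97 to 1.02) and N-IKKa one of 0.57 (SE 0.47, 95% limits −0.42 to 1.56), each vs WT. Smo had the narrowest limits: 0.01 in C-IKKa (95% limits −0.19 to 0.21) and 0.17 in N-IKKa (95% limits −0.03 to 0.37).

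For Hhip, WT averaged 157 ± 102, N-IKKa 402 ± 408 and C-IKKa 127 ± 105 (SD, n = 6 each). In N-IKKa vs C-IKKa its log2 fold change was 1.36 (SE 0.62, 95% limits 0.05 to 2.67, limma adjusted p = 0.428). All 7 members had positive values in N-IKKa vs WT (median 0.68) and in N-IKKa vs C-IKKa (median 0.54), where 51.2% and 50.9% of all tested genes were positive with medians of 0.01 and 0.01. N-IKKa holds 3 of the 6 high hair shaft libraries, WT 2 and C-IKKa 1. Hair shaft list means ran from 2.68 to 11.34 in N-IKKa, from 2.39 to 11.65 in WT and from 2.35 to 9.63 in C-IKKa. Summed over this list, libraries held 1509 to 211814 normalized counts in N-IKKa, 1523 to 258793 in WT and 998 to 68658 in C-IKKa.

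Without the 6 high hair shaft libraries, 4 WT, 3 N-IKKa and 5 C-IKKa libraries remained, and limma again called 0 of 7 members in each comparison. It called 0.923% of tested genes for C-IKKa vs WT, 0.0113% for N-IKKa vs WT and 0.289% for N-IKKa vs C-IKKa. Shh passed the filter through the libraries left out here and held 0 to 6 reads in each WT and N-IKKa library that remained, so its value is not read in this comparison. The N-IKKa values vs WT of the other members were closer to 0: 0.29 for Gli1, 0.06 for Ptch1 and 0.12 for Hhip, with a median of 0.13 over the 6 (0.63 with all libraries). Against C-IKKa, 4 of these 6 turned negative (median −0.18), among them Gli1 (−0.63, 95% limits −1.75 to 0.50). In C-IKKa vs WT the values were 0.92 for Gli1 (SE 0.48, 95% limits −0.12 to 1.96, limma adjusted p = 0.469), 0.35 for Ptch1 and 0.37 for Gli3. Without C-IKKa 18 as well, Gli1 gave 0.48 and Hhip −0.59 (95% limits −1.05 to −0.13, limma adjusted p = 0.323). For N-IKKa vs C-IKKa the same fit gave −0.19 for Gli1, −0.0084 for Gli2 and −0.17 for Gli3. Ptch1 gave −0.026 and Smo −0.016 there. Hhip gave 0.71 (95% limits 0.21 to 1.21, limma adjusted p = 0.479). The negative Gli1 value vs C-IKKa thus rested largely on C-IKKa 18.

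**Figure D3:**
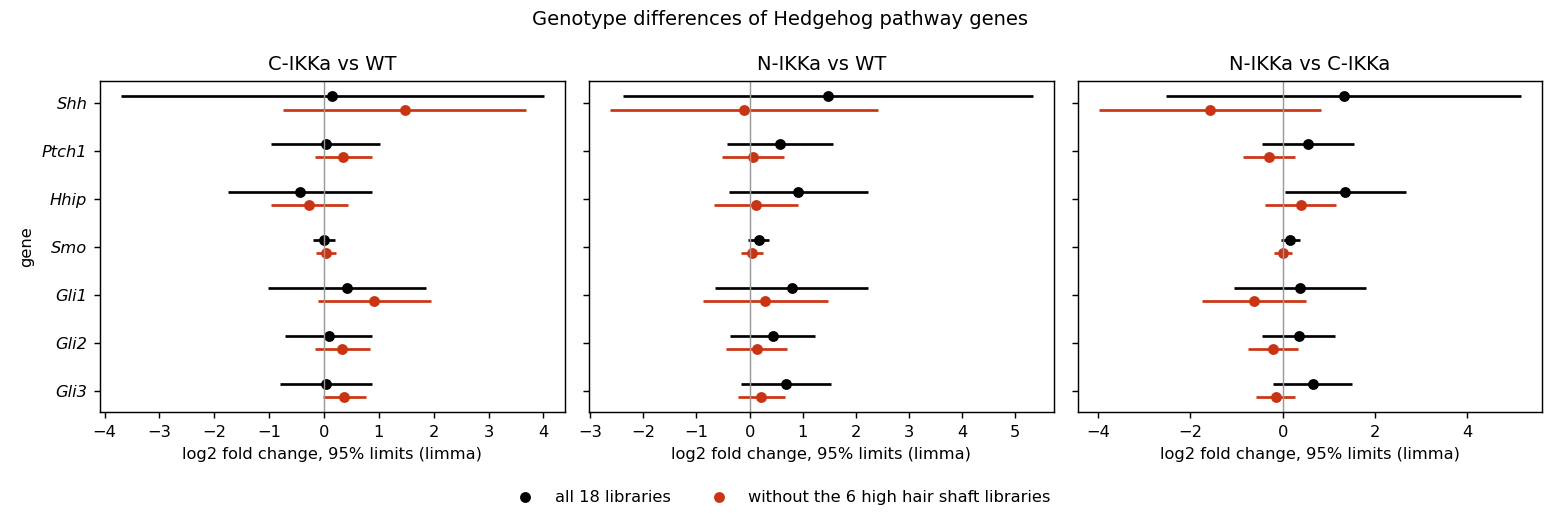
Log2 fold change of each member with its 95% limits (limma), for 3 genotype comparisons, from all 18 libraries (black) and without the 6 high hair shaft libraries (red). All limits include 0 except those of Hhip in N-IKKa vs C-IKKa with all libraries (0.05 to 2.67).

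How the members varied together was tested within each set of libraries, since the sets stand apart. Within the 12 other libraries, Gli1 and Gli2 moved together (Pearson r = 0.967, permutation p = 3e-05, adjusted 0.00078; Spearman rho = 0.895, permutation p = 0.00021, adjusted 0.00546, over 26 relations). Without WT 3 and C-IKKa 18, the 2 libraries farthest from the median of Gli1, r was 0.88. Without C-IKKa 18 alone, r was 0.923 over 11 libraries (permutation p = 0.00013, adjusted 0.00169 over 13 relations) and rho was 0.864. The relation was thus present among libraries with little or no Shh.

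Gli1 with Ptch1 gave r = 0.826 in the same 12 libraries (permutation p = 0.00855, adjusted 0.0447), but rho was 0.392 (permutation p = 0.21, adjusted 0.496), and leaving out the 2 farthest libraries brought r to 0.0765. Gli1 with Shh gave r = 0.844 (permutation p = 0.00215, adjusted 0.0279), rho = 0.627 (permutation p = 0.0336, adjusted 0.217) and r = 0.492 without the 2 farthest. Without C-IKKa 18 alone these were 0.420 and 0.602. Both relations rest on C-IKKa 18, the 1 library of the 12 with abundant Shh. In the other 11 libraries Shh held at most 11 reads, and 9 of them held 3 or fewer. Gli1 with Shh thus sets 1 library against counts near the limit of detection. Its r and p are not read as a relation across these libraries. Gli1 with Hhip gave r = 0.439 (permutation p = 0.154, adjusted 0.266) and rho = −0.042.

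The hair shaft list mean was related to Ptch1 (r = 0.712, permutation p = 0.00671, adjusted 0.0447; rho = 0.741, permutation p = 0.00796, adjusted 0.103) and to Gli2 (r = 0.702, permutation p = 0.00859, adjusted 0.0447; rho = 0.497, permutation p = 0.103, adjusted 0.267). Without WT 6 and C-IKKa 18, the farthest 2 libraries, r was 0.415 and 0.511. Without C-IKKa 18 alone, r was 0.457 (permutation p = 0.16, adjusted 0.48) and 0.449 (permutation p = 0.165, adjusted 0.48), so neither r was past the threshold without it. Spearman's rho without it was 0.664 for Ptch1 (permutation p = 0.0299, adjusted 0.194) and 0.345 for Gli2 (permutation p = 0.297, adjusted 0.644). Within the 6 high hair shaft libraries, 0 of 13 relations had an adjusted p below 0.05. The largest r of Gli1 there was 0.905 with Shh (exact permutation p = 0.025, adjusted 0.0929).

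**Figure D4:**
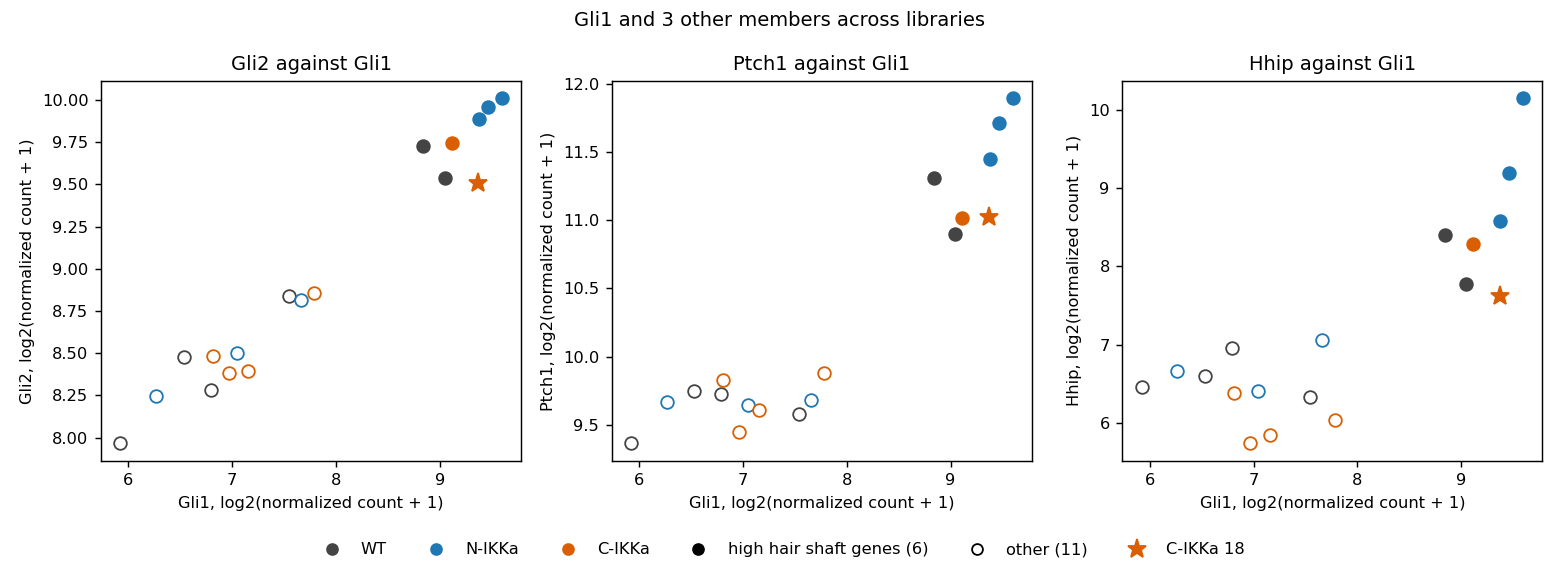
Log2(normalized count + 1) of Gli2, Ptch1 and Hhip (vertical axes) against Gli1 (horizontal axes) in the 18 libraries. Among the open circles, Gli2 rises along Gli1 (r = 0.923 over these 11 libraries), with r = 0.420 for Ptch1 and r = −0.173 for Hhip, neither past the threshold.

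The other genes of the pathway were taken from a list of 42, of which 37 were tested. Limma called 0 of the 37 in each of the 3 comparisons, and 3, 1 and 3 had an unadjusted p below 0.05 for C-IKKa vs WT, N-IKKa vs WT and N-IKKa vs C-IKKa. These are 8.11%, 2.70% and 8.11% of the 37, beside 5.73%, 4.14% and 11.7% of all tested genes. At the adjusted threshold edgeR and DESeq2 called 0. Their median log2 fold change was −0.03 for C-IKKa vs WT (15 of 37 positive), 0.12 for N-IKKa vs WT (29 of 37) and 0.13 for N-IKKa vs C-IKKa (27 of 37). Of all tested genes, 50.03%, 51.2% and 50.9% were positive in the same order. The smallest p values in C-IKKa vs WT were those of Lrp2, an endocytic receptor that can bind Shh (2.96, SE 0.94, limma adjusted p = 0.421), and Stk36, a kinase of the pathway (−0.83, SE 0.35, limma adjusted p = 0.771). Lrp2 held 9.79, 104.5 and 165 normalized counts as lowest, median and highest in C-IKKa, and 0, 6.08 and 58.9 in WT, and these overlapped. In N-IKKa vs WT they were Ccnd1, a cyclin gene and target (0.58, SE 0.25, limma adjusted p = 0.88), and Scube1 (1.67, SE 0.86, limma adjusted p = 0.88). In N-IKKa vs C-IKKa they were Disp1, which releases the ligand (−0.50, SE 0.18, limma adjusted p = 0.35), and Ccnd1 (0.66, SE 0.25, limma adjusted p = 0.383). Without the 6 high hair shaft libraries, 19 of the 37 genes were positive for C-IKKa vs WT (median 0.02). There 21 were positive for N-IKKa vs WT (median 0.04) and 20 for N-IKKa vs C-IKKa (median 0.03).

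Across the sets of libraries, 10 of these 37 genes lay higher in every high hair shaft library than in any of the other 12, and 1, Cdon, lay lower (8.45% and 5.25% of tested genes). The 10 include Foxe1, whose separation was fixed by the filter. Among the 17131 genes that reached 10 normalized counts in more than 7 libraries, 7.93% lay higher. The genes named in these paragraphs across sets were chosen after their values were seen. Ligand release genes differed among themselves. Scube3, a secreted protein that helps release the ligand, ran from 414 to 1287 in the 6, from 50.8 to 109 in the 11 and was 281 in C-IKKa 18. Scube1 ran from 107 to 626 in the 6 and from 10.2 to 86.3 in the 11. It was 89.3 in C-IKKa 18, close to the 86.3 of N-IKKa 10. Disp1 ran from 201 to 332 in the 6 and from 301 to 462 in the 11. The ligand genes Dhh and Ihh stayed at or under 21.4 and 10.5 in all 18 libraries.

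Of 4 tested co-receptor genes, Cdon was the 1 whose ranges did not overlap. It lay lower in all 6 than in the other 12, as did 5.25% of tested genes. Cdon, which binds the ligand at the cell surface, ran from 640.4 to 1243 in the 6 and from 1450 to 2058 in the 11, with 1567 in C-IKKa 18. Boc, Gas1 and Lrp2 overlapped between the sets. C-IKKa 18 thus lay with the 6 in Ptch1 and with the 11 in Cdon.

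Of 18 tested genes of the cilium and of Gli processing, 3 lay above the other 12 in all 6 libraries, beside 8.45% of tested genes: Sufu, Tulp3 and Csnk1a1. Csnk1a1 barely did, with a lowest value of 7465.1 in the 6 and a highest of 7455.3 in the 12. For Tulp3 these were 688 and 512. Sufu, which restrains Gli proteins, ran from 721 to 1015 in the 6 and from 467 to 687 in the 11, and was 634 in C-IKKa 18. Kif7, a cilium motor protein that regulates Gli processing, ran from 150.2 to 284 in the 6 and from 78.9 to 147 in the 11, and was 164 in C-IKKa 18. Most of these genes overlapped between the sets.

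Of 9 tested target genes, 5 lay above the other 12 in all 6 libraries, beside 8.45% of tested genes: Ccnd1, Mycn, Foxe1, Foxm1 and Sfrp1. Foxe1 reached 10 normalized counts in exactly these 6 libraries, so the filter fixed its separation, and it is counted here as a description. Leaving Foxe1 out, Ccnd1, Mycn, Foxm1 and Sfrp1 remain. Of the 17131 genes at 10 or more in over 7 libraries, 7.93% lay higher. Mycn, a growth regulator, ran from 497 to 1292 in the 6, from 29.7 to 84.7 in the 11 and was 272 in C-IKKa 18. Foxe1, a forkhead factor of the hair follicle, ran from 30.2 to 115 in the 6 and from 0 to 2.38 in the 11, and was 1.90 in C-IKKa 18. Ccnd1 ran from 1231 to 2608 in the 6 and from 687 to 1053 in the 11, and was 933 in C-IKKa 18. C-IKKa 18 thus exceeded the 11 in Mycn and lay among them in Foxe1 and Ccnd1. Igf2 and Efcab7 were listed at 0 in every library.

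**Figure D5:**
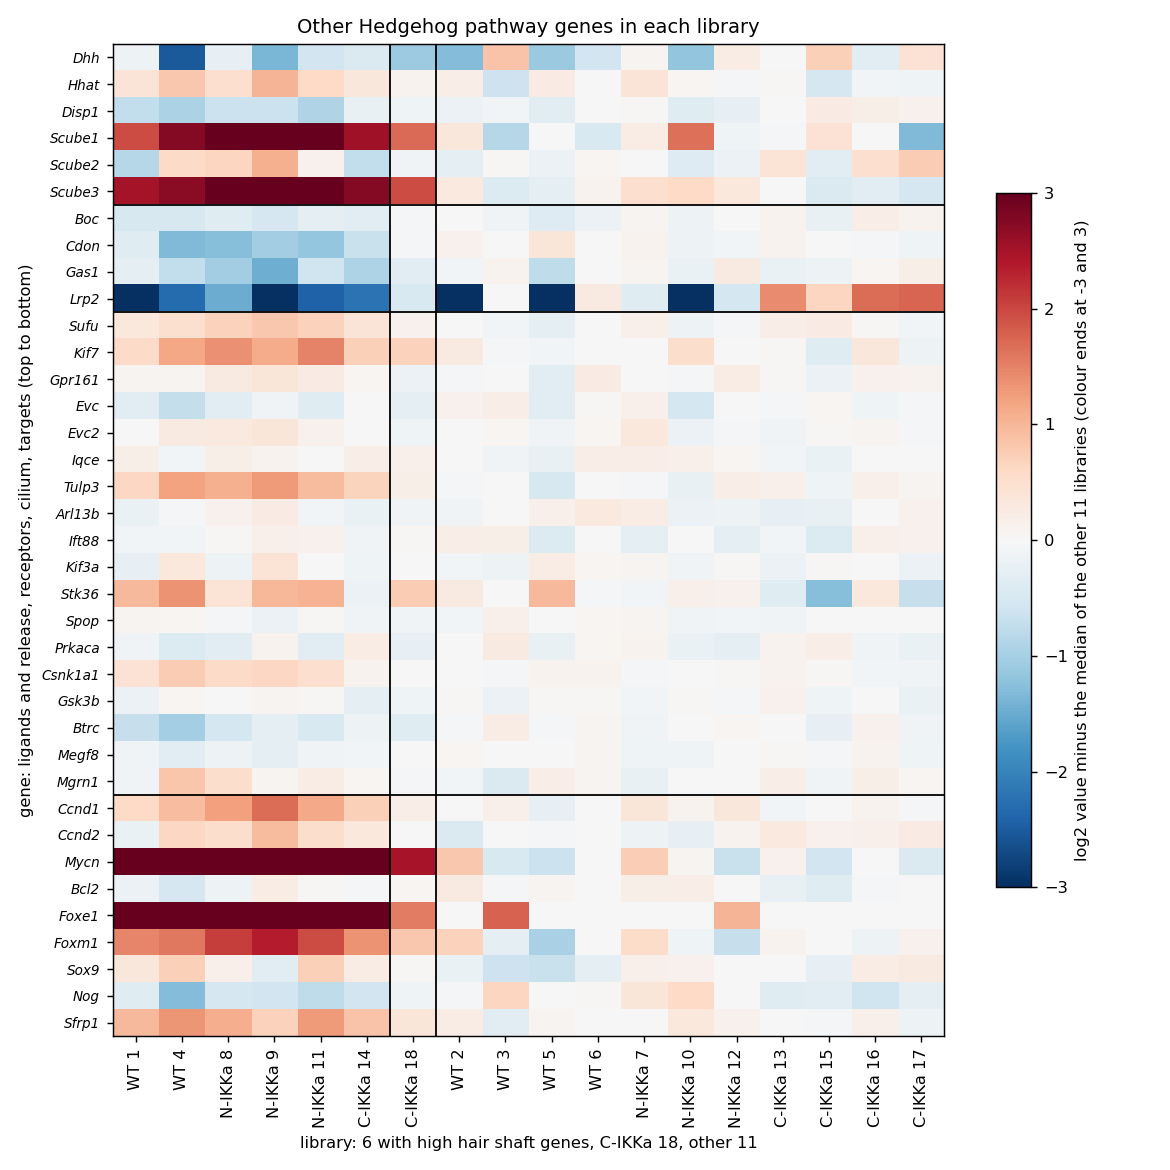
Log2(normalized count + 1) of the 37 other tested pathway genes (rows) in the 18 libraries (columns), minus the median of the 11 libraries with little or no Shh, with colour ending at −3 and 3. Columns are the 6 high hair shaft libraries, C-IKKa 18 and the 11; Scube1, Scube3 and Mycn are raised in the first 7 columns.

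Genes with the most similar pattern were found by the mean absolute difference of log2 values over the 18 libraries, each gene centred on its own median, among 14606 tested genes. For Shh they were Crhr1 (0.80), Hes2 (0.81), Ggt1 (0.81), Tyr (0.86) and Gjb2 (0.93). For Gli1 they were Prr11 (0.32), Troap (0.32), Ccnb2 (0.34), Tpx2 (0.34) and Etv4 (0.35), and for Gli2 Ncapd2 (0.18), Tmem132a (0.19), Espl1 (0.19), Lbh (0.20) and Arhgap11a (0.20). For Ptch1 they were Lmnb1 (0.16), Plekhg1 (0.19), Rrm2 (0.19), Ammecr1 (0.21) and Sox4 (0.21). For Hhip they were Nmnat2 (0.27), Dcc (0.31), Knl1 (0.35), Sox5 (0.35) and Basp1 (0.36). No other member was among the 5 nearest to any of these 5 genes. The best-placed member was Ptch1, which ranked 10 for Hhip (0.38) and 36 for Gli1 (0.45). All 18 libraries enter this measure, so it is led by the contrast between the high hair shaft libraries and the rest. Lmnb1, the gene nearest to Ptch1, held 565 normalized counts in C-IKKa 18, between 351 to 446 in the 11 and 908 to 2038 in the 6, where Ptch1 held 2086 in C-IKKa 18.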

How the data were processed

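RNA of 18 back skin samples was counted per gene with featureCounts on GRCm39, per the submitters' processing notes. The sources used here name no aligner and no strand setting. The authors deposited normalized counts, a depth-scaled signal and not raw counts. In each library the values were whole multiples of 1 step (tolerance 0.01 read), so whole reads were recovered for 100% of values. The labels describe 1 mouse per library, 6 per genotype.

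Tests kept genes whose normalized count reached 10 in 6 or more libraries and used limma 3.58.1 (R 4.3.3, trended empirical Bayes) on log2(normalized count + 1), with 1 mean per genotype and Benjamini-Hochberg adjustment within each comparison. Fold changes on this scale understate low genes. edgeR 4.0.16 and DESeq2 1.42.0 ran on recovered reads, and the limma fit was checked on simulated data. Those data held no split into high and low hair shaft libraries, so the check does not cover genes that follow it, such as Shh. Relations used exact (6 libraries) or 100000-resample (12) permutation tests, two-sided.

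Members and gene lists were chosen with earlier results of these data known. The rule for other named genes took the 2 pathway genes with the smallest p per comparison and the 5 genes nearest in pattern. Alternatives changed pseudocount, filter, scaling, tool, covariates and libraries used. Fits without the 6 high hair shaft libraries and C-IKKa 18 or with edgeR without the 6, relations without C-IKKa 18, motif matches with 1 mismatch and the background of genes at 10 or more in over 7 libraries were chosen after seeing the data. Krt85 was not analysed here, and 1 gene of the pathway is not reported here.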

Additional observations from a re-analysis of the deposited data

How the results depend on the processing

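No member was called in any comparison under any alternative run, and of the other pathway genes 1, Sox9, was called in C-IKKa vs WT (log2 fold change 0.50, adjusted p = 0.0446) by edgeR without the 6 high hair shaft libraries. Over all genes, the calls ranged from 33 to 192 in C-IKKa vs WT, from 39 to 188 in N-IKKa vs C-IKKa and from 0 to 2 in N-IKKa vs WT. Of the members' log2 fold changes under the alternatives, 491 kept both their sign and their side of the threshold. The other 55 changed sign, none of them past the threshold, and the cause was not tested. Changing the filter, or fitting the compared groups alone, cannot alter a log2 fold change, so values from those alternatives kept their sign by design. Median-of-ratios scaling gave the same all-gene median log2 fold changes as the deposited scaling. They were 0.000281 for C-IKKa vs WT, 0.00567 for N-IKKa vs WT and 0.00608 for N-IKKa vs C-IKKa. That alternative was thus hardly a change of scaling. In C-IKKa vs WT, Shh was −0.075 with a pseudocount of 5, −0.57 with edgeR and −0.58 with DESeq2. Gli3 was −0.092 with edgeR and −0.097 with DESeq2, Ptch1 −0.014 and −0.019, and Hhip 0.064 with the sex covariate. Leaving out each library in turn gave −0.61 to 1.01 for Shh, −0.079 to 0.28 for Gli2, −0.15 to 0.27 for Gli3, −0.15 to 0.27 for Ptch1 and −0.039 to 0.049 for Smo. In N-IKKa vs WT, Shh was −0.11 without the 6 high hair shaft libraries, also without C-IKKa 18, and −0.95 with edgeR without the 6, where 0 to 6 reads of Shh were left in each library of both groups. In N-IKKa vs C-IKKa without the 6, Shh was −1.58, Gli1 −0.63, Gli2 −0.20, Gli3 −0.15 and Ptch1 −0.29, and with edgeR −3.72, −0.89, −0.26, −0.16 and −0.42. Without C-IKKa 18 too, they were −0.70, −0.19, −0.0084, −0.17 and −0.026, and Smo −0.016. With the hair shaft list as covariate, Shh was −0.51, Gli1 −0.29 and Gli2 −0.039, and with the sex covariate Shh was −0.38 and Gli1 −0.28.

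Of 13 relations in the 12 other libraries, 5 had an adjusted p of Pearson r below 0.05 (adjusted over 26 relations). These include Gli1 with Shh, which sets C-IKKa 18 against 11 libraries with little or no Shh. With a pseudocount of 0.5 there were 2. Without C-IKKa 18, where p was adjusted over 13 relations, there was 1, Gli1 with Gli2. By Spearman's rho, only Gli1 with Gli2 passed in the 12 (permutation test, adjusted p = 0.00546). Centring on genotype gave r = −0.23 for Gli1 with Gli3 and −0.12 for the hair shaft list with Gli3. Without C-IKKa 18, r was 0.0229 for Gli1 with Smo, −0.17 for Gli1 with Hhip and −0.0354 for the hair shaft list with Shh. No paired analysis was possible because the groups share no replicate numbers. Depth limits Shh alone among the members: 9 of 11 libraries held 3 reads or fewer.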
